A study of Homo sapiens with 12 samples.

Results

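The genes described here encode the proteins that carry copper into, through and out of human cells, together with metallothioneins and their main regulator. They were listed by symbol, with no measured value in the rule, and all 10 were found among the 17508 genes of the count table. They are SLC31A1 and SLC31A2 (copper import), ATP7A and ATP7B (export), ATOX1 and CCS (chaperones), MT2A, MT1E and MT1X (metallothioneins) and MTF1 (regulator).

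RNA was sequenced from cells labelled TYK-nu, a line derived from a high grade serous ovarian carcinoma. They were exposed to 15 µM cisplatin, a platinum drug that crosslinks DNA, or to DMSO, the solvent control, for 24 or 72 h. Each of the 4 groups had 3 libraries, made from poly(A) RNA with a directional kit and sequenced in a single lane. Exon and intron counts together summed to between 18526830 and 68753262 per library, and exon counts alone to between 17341818 and 63913081. The labels speak of triplicates of cells and do not say whether these were separate cultures, so the p-values measure the spread between these libraries, which may be technical.

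Copper enters cells mainly through SLC31A1 (CTR1), is passed on by small chaperones, and is pumped into the secretory pathway or out of the cell by ATP7A and ATP7B. Metallothioneins are short cysteine-rich proteins that bind zinc, copper and other soft metals, and MTF1 is the zinc-sensing factor that switches on their genes through metal response elements in their promoters. Several of these proteins have been studied in platinum uptake, export and binding. The comparison of cisplatin with DMSO here covers the RNA of their genes and measures none of these processes.

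The labelled cell type was checked against its markers before the comparisons. Of 11 serous ovarian markers, 9 were in the table, and 4 of these stayed under 1 CPM in every library (CPM, exon counts scaled to the TMM-corrected size of the library). PAX8, the lineage factor of serous carcinoma, reached at most 2 exon counts in a library and KRT7 at most 8, while FOLR1 and SOX17 had 0 in all 12 libraries. WT1 lay between 1.59 and 4.19 CPM, EPCAM between 0.117 and 1.68, and KRT8, KRT18 and MECOM were higher, with KRT18 between 133 and 181. The endothelial junction genes PECAM1 and CDH5 lay between 1350.3 and 2491 and between 658 and 1046 CPM, KDR between 243 and 289 and TEK between 135 and 154, while VWF did not exceed 1.20. The data therefore go against the label in part, and the cells are called by it only as labelled. Fibroblast markers summed to at most 0.255 and leukocyte markers to at most 1.01 CPM.

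The promoters of MT2A and MT1X and that of MT1H, a family member with no counts that was chosen after its values were seen, are shown because their metal response elements can be set beside the levels below. The sequences are the 250 bases before the gene start, from RefSeq on GRCh38.p14, 5′ to 3′ on the + strand. Capitals mark TGCACNC or TGCGCNC on either strand. MT2A lies at chr16:56608334-56608583, MT1X at chr16:56682220-56682469 and MT1H at chr16:56669564-56669813.
MT2A: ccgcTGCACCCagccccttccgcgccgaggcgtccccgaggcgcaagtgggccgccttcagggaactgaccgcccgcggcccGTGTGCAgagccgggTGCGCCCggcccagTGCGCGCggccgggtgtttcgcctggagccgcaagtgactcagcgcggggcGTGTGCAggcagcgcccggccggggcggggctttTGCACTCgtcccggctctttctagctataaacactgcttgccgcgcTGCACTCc
MT1X: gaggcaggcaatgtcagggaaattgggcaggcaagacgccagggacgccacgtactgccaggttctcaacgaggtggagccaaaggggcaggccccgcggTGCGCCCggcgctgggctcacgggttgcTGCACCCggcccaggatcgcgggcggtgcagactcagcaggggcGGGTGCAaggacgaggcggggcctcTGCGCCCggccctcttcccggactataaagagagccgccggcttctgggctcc
MT1H: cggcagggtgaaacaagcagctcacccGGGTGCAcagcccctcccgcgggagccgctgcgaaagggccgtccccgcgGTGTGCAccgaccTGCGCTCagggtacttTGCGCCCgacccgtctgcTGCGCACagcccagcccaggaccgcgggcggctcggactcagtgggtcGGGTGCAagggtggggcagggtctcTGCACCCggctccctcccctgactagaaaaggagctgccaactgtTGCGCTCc
MT2A held 7 matches, MT1X 4 and MT1H 8, overlapping matches counted. Of 35116 promoter windows of the same length, 24.8% held at least 1 match and 0.37% held at least 4. Promoter entries were found for 8 of the 10 genes. ATOX1 and CCS each held 2 overlapping matches, 1 of the 3 listed starts of ATP7B held 2, and the windows of MTF1, SLC31A1 and ATP7A held 0. The antioxidant response element TGACNNNGC, searched on both strands, occurred in 10.9% of windows and in those of MT2A, MT1X and CCS. A match describes the letters and not a bound site. MT1H was listed at 0 exon counts in every library although its window held the most matches of those printed. MT1B and MT4, not printed, also had 0 exon counts and held 3 matches each, fewer than MT2A and MT1X.

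Levels between genes were compared as exon CPM per kb, using the union of annotated exons as length and the mean of the 12 libraries. MT2A was the highest of the 10 genes at 453 ± 21.9 (SD), followed by MT1E at 83.7 ± 11.6 and MT1X at 20.9 ± 3.79. CCS, which delivers copper to SOD1, had 17.1 ± 1.10, ATOX1, which delivers it to the exporters, 16.6 ± 1.146, and SLC31A1 10.6 ± 0.866. MTF1 had 5.30 ± 1.09, SLC31A2 3.51 ± 0.336, ATP7A 1.03 ± 0.141 and ATP7B 0.366 ± 0.0481. Over the 12 libraries the ranges of MT1X, CCS and ATOX1 overlapped. At 24 h MT1X was above both in every library, at 20.6 or more in either treatment against at most 17.5 for CCS and 18.3 for ATOX1. At 72 h MT1X had group means of 17.2 in DMSO and 18.5 in cisplatin, and its range overlapped with those of CCS and ATOX1.

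**Figure D1:**
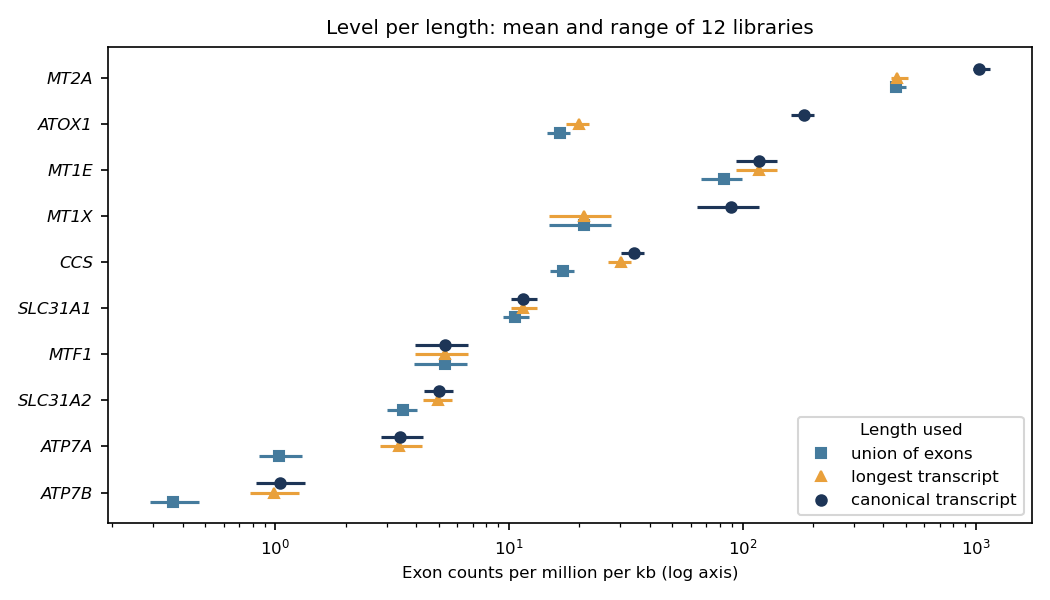
Level of each gene in exon CPM per kb on a log axis, as the mean (marker) and range (line) of the 12 libraries, with the length taken as the union of exons (squares), the longest transcript (triangles) or the canonical transcript (circles). MT2A is highest and ATP7B lowest with each length, while ATOX1 moves from 16.6 with the union of exons to 184 with the canonical transcript.

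The length used changed these levels. With the canonical transcript, a length chosen after the data were seen, ATOX1 came to 184 and MT1X to 89.1 exon CPM per kb. MT2A and ATP7B stayed at the ends of the order with all 3 lengths.

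Cisplatin at 24 h was followed by no change in exon counts that passed the test for any of the 10 genes. With edgeR's quasi-likelihood test and Benjamini-Hochberg adjustment, 0 of 10 were called, as were 0.0% of the 10444 genes tested, and 1 of the 10 and 260 of all genes had an unadjusted p under 0.05. DESeq2 also called 0 of the 10. The 95% intervals of the log2 changes lay between -0.41 and 0.25 over the 10 genes.

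MT1X was the gene with the unadjusted p under 0.05 at 24 h. Its exon CPM were 47.4, 42.7 and 43.5 in DMSO and 39.5, 38.4 and 35.6 in cisplatin. All 3 cisplatin libraries were lower than all 3 DMSO libraries, a separation seen in 1 of the 10 genes and in 6.42% of all genes tested. The log2 change was -0.23 ± 0.09 (SE), with an adjusted p of 0.9997 by edgeR.

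At 72 h, 0 of 10 genes were called for cisplatin against DMSO, beside 0.0287% of all genes, with the same edgeR test. DESeq2 called 0 of the 10, beside 96 of the 4481 genes to which it gave an adjusted p. Some of the 10 may therefore not have been tested by DESeq2. By edgeR, 1 of the 10 had an unadjusted p under 0.05, as did 1311 of all 10444 genes. The 95% intervals of the log2 changes lay between -0.30 and 0.47. ATP7A, the copper pump of most tissues, had 27.6, 29.0 and 32.4 exon CPM in DMSO and 34.9, 31.1 and 36.4 in cisplatin, so that the groups overlapped. Its log2 change was 0.19 ± 0.08 (SE), with an adjusted p of 0.341 by edgeR.

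ATP7B, the related pump known best from liver, had 5.87, 6.18 and 5.45 exon CPM in DMSO at 72 h and 6.57, 6.67 and 7.11 in cisplatin. These groups did not overlap, which held for 1 of the 10 genes and for 18.1% of all genes tested. Its log2 change was 0.22 ± 0.12 (SE), with an adjusted p of 0.460 by edgeR. MT1E had a log2 change of 0.16, with an adjusted p of 0.419 by edgeR and a range of 0.075 to 0.26 with each library left out in turn. Summed markers also differed between the groups at 72 h without overlap, the serous list at 277.9 to 282.9 CPM in DMSO and 296 to 302 in cisplatin and the endothelial list at 2434 to 2542 and 2585 to 2743. No single gene of either list, with 5 tested in each, was called by edgeR for cisplatin at 72 h. Leukocyte and fibroblast sums overlapped at 72 h, and at 24 h only the fibroblast sum, at most 0.244 CPM, did not overlap. The part of these markers in the cisplatin comparisons was not tested.

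The importer SLC31A1 was not called at either time. Its 95% interval was -0.11 to 0.17 at 24 h and -0.05 to 0.22 at 72 h on the log2 scale. MT2A had intervals of -0.17 to 0.06 and -0.07 to 0.15. MTF1 had log2 changes of 0.06 at 24 h and 0.09 at 72 h, the latter 0.053 to 0.15 with each library left out. The difference of the cisplatin effect between the times, tested as an interaction, was called by edgeR for 0 of 10 genes and for 0.0% of all genes. An unadjusted p under 0.05 was found for 1 of the 10 and 985 of all genes. That gene of the 10 was MT1X, at 0.34 ± 0.12 (SE) on the log2 scale and an adjusted p of 0.455 by edgeR. DESeq2 called 0 of the 10 but gave an adjusted p to only 1423 genes, so some of the 10 may not have been tested.

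**Figure D2:**
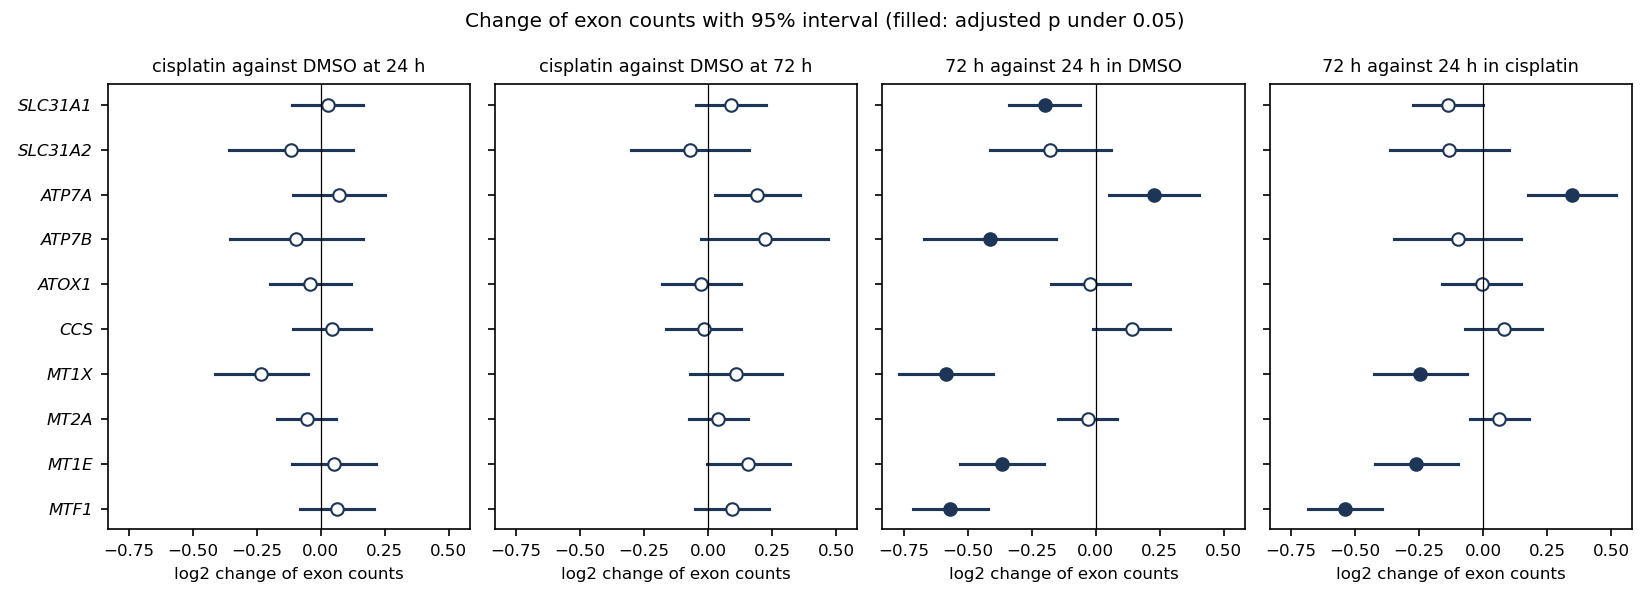
Log2 change of exon counts for each gene in the 4 comparisons, with 95% intervals, filled where edgeR's adjusted p is under 0.05. No marker is filled in either cisplatin comparison, and 6 and 4 are filled for 72 against 24 h in DMSO and in cisplatin.

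More of the 10 genes were called for time than for the drug. Between 72 and 24 h in DMSO, edgeR called 6 of 10 genes, beside 65.1% of all genes, so the share was close to the background. Of these, 5 were lower, beside 32.5% of all genes, and 1 was higher, beside 32.6%. In cisplatin, 4 of 10 were called, beside 63.5% of all genes, 3 lower (31.5% of all genes) and 1 higher (32.0%). The groups did not overlap for 6 of 10 genes in DMSO, beside 67.4% of all genes, and for 4 of 10 in cisplatin, beside 67.2%. The comparisons in DMSO and in cisplatin share their libraries with the drug comparisons above. Marker genes also moved with time. Of the 5 endothelial markers, edgeR called 0 higher and 2 lower in DMSO and 1 higher and 2 lower in cisplatin. Their summed level, most of it PECAM1 and CDH5, lay between 3845 and 3900 CPM in DMSO at 24 h and between 2434 and 2542 at 72 h, and in cisplatin between 3760 and 3889 and between 2585 and 2743. Of the 5 serous markers tested, 2 were higher and 3 lower in DMSO and 2 higher and 1 lower in cisplatin, with log2 changes of up to 2.34 and 2.55. Of the 2 leukocyte markers tested, both under 1 CPM, 1 was higher and 1 lower in each treatment, and no fibroblast marker could be tested. The part of these markers in the results below was not tested. In bulk RNA, fewer cells of a type and less RNA per cell cannot be told apart.

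MTF1 had the widest range of group means among the 10 genes, 0.62 on the log2 scale. It had 51.1, 44.7 and 52.3 exon CPM in DMSO at 24 h and 35.8, 31.3 and 32.7 at 72 h. In cisplatin it had 50.8, 53.0 and 50.4 at 24 h and 36.6, 35.0 and 34.7 at 72 h. Every library at 72 h was lower than every library at 24 h. MTF1 fell by 0.57 ± 0.07 (SE, log2) in DMSO and by 0.54 ± 0.07 in cisplatin, with adjusted p of 2.13e-07 and 3.75e-07 by edgeR.

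The metallothionein genes, which lie in a cluster on chromosome 16, differed in their calls, with MT1X and MT1E lower at 72 h and MT2A not called. MT1X had 25.7, 33.1 and 30.2 exon CPM in DMSO at 72 h and 28.0, 33.9 and 34.2 in cisplatin, lower than at 24 h without overlap within each treatment. It fell by 0.59 ± 0.09 (SE, log2) in DMSO and by 0.25 ± 0.09 in cisplatin, with adjusted p of 3.45e-06 and 0.0174 by edgeR. The cisplatin call was lost without cisplatin replicate 1 at either time, with the log2 change at -0.22 without the 24 h library and -0.16 without the 72 h library.

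MT1E had 104, 93.3 and 89.1 exon CPM in DMSO at 24 h and 75.0, 77.6 and 70.6 at 72 h. In cisplatin it had 95.1, 102 and 101 at 24 h and 70.1, 86.4 and 92.3 at 72 h. The groups did not overlap in either treatment, and replicate 1 was the lowest in cisplatin at 72 h. MT1E fell by 0.37 ± 0.08 (SE, log2) in DMSO and by 0.26 ± 0.08 in cisplatin, with adjusted p of 0.000310 and 0.00567 by edgeR, and the latter call was lost without that library, at -0.16.

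MT2A, the most abundant of them, had group means of 419.9 ± 36.0 and 411 ± 2.16 exon CPM in DMSO at 24 and 72 h (SD, n = 3) and of 404 ± 11.2 and 422 ± 21.7 in cisplatin. Its log2 changes with time were -0.03 in DMSO and 0.06 in cisplatin (0.039 to 0.098 with each library left out), and the edgeR test called neither. Within the summed exon counts of the 3 metallothioneins, MT2A took 75.0% ± 0.310 in DMSO at 24 h and 79.8% ± 0.830 at 72 h, and 74.7% ± 0.358 and 78.7% ± 1.42 in cisplatin. MT1X took 7.96% ± 0.316 and 5.75% ± 0.651 in DMSO, and 6.996% ± 0.329 and 5.95% ± 0.265 in cisplatin. The 3 genes have similar sequences, and reads that could be from more than 1 family member make their counts uncertain.

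The exporters were called in opposite directions for time in DMSO. ATP7A had 24.8, 24.0 and 28.0 exon CPM in DMSO at 24 h, overlapping with 72 h, and 28.8, 26.1 and 25.4 in cisplatin at 24 h, all lower than in cisplatin at 72 h. It rose by 0.23 ± 0.08 (SE, log2) in DMSO and by 0.35 ± 0.08 in cisplatin, with adjusted p of 0.0228 and 0.000870 by edgeR. The DMSO call was lost without DMSO replicate 1 or 2 at 24 h or replicate 3 at 72 h, at 0.21, 0.18 and 0.15.

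ATP7B had 8.86, 7.22 and 7.06 exon CPM in DMSO at 24 h and fell by 0.41 ± 0.12 (SE, log2) at 72 h, with an adjusted p of 0.00562 by edgeR. Without DMSO replicate 1 at 24 h, its highest library, the change was -0.30 and was not called. In cisplatin it had 6.56, 7.45 and 7.76 at 24 h, a log2 change of -0.10 and an adjusted p of 0.486 by edgeR, with a range of -0.17 to -0.058 with each library left out. The ratio of ATP7A to ATP7B exon counts was 3.36 ± 0.586 and 5.12 ± 0.715 in DMSO at 24 and 72 h (SD, n = 3) and 3.72 ± 0.587 and 5.03 ± 0.333 in cisplatin.

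SLC31A1 had 57.2, 54.2 and 60.9 exon CPM in DMSO at 24 h and 50.5, 48.4 and 50.9 at 72 h, with no overlap. It fell by 0.20 ± 0.07 (SE, log2), with an adjusted p of 0.0125 by edgeR, and the call was lost without DMSO replicate 3 at 24 h, at -0.16. In cisplatin its log2 change was -0.14, with an adjusted p of 0.0768 by edgeR, and a range of -0.20 to -0.088 with each library left out. It was called only without cisplatin replicate 1 at 72 h, at -0.20 and an adjusted p of 0.0206 by edgeR. SLC31A2, a relative thought to act in endosomal copper release, had 7.46 to 9.94 exon CPM over all libraries. Its log2 changes with time were -0.18 and -0.13 and were not called, and the first lay between -0.26 and -0.087 with each library left out.

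Neither chaperone was called for time. ATOX1 lay between 75.9 and 95.7 exon CPM in all libraries, with log2 changes of -0.02 in DMSO and -0.01 in cisplatin. CCS lay between 32.1 and 40.5, with log2 changes of 0.14 and 0.08 and adjusted p of 0.0964 and 0.344 by edgeR. With each library left out these changes ranged from 0.085 to 0.18 and from 0.021 to 0.12. In DMSO every CCS library at 72 h was above every library at 24 h, a separation seen in either direction in 67.4% of all genes. Counting of ATOX1 is uncertain where ATOX1-AS1 and G3BP1 overlap it on the opposite strand, and the same holds for SLC31A1 with CDC26, SLC31A2 with FKBP15, ATP7A with PGAM4, ATP7B with FABP5P2 and MTF1 with ENSG00000235673. On the same strand, where the strand of a read cannot separate genes, PGK1 and C4orf46P2 overlap ATP7A, RPLP1P6 and ENSG00000275765 overlap ATOX1, and ENSG00000259827 overlaps MT1X.

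**Figure D3:**
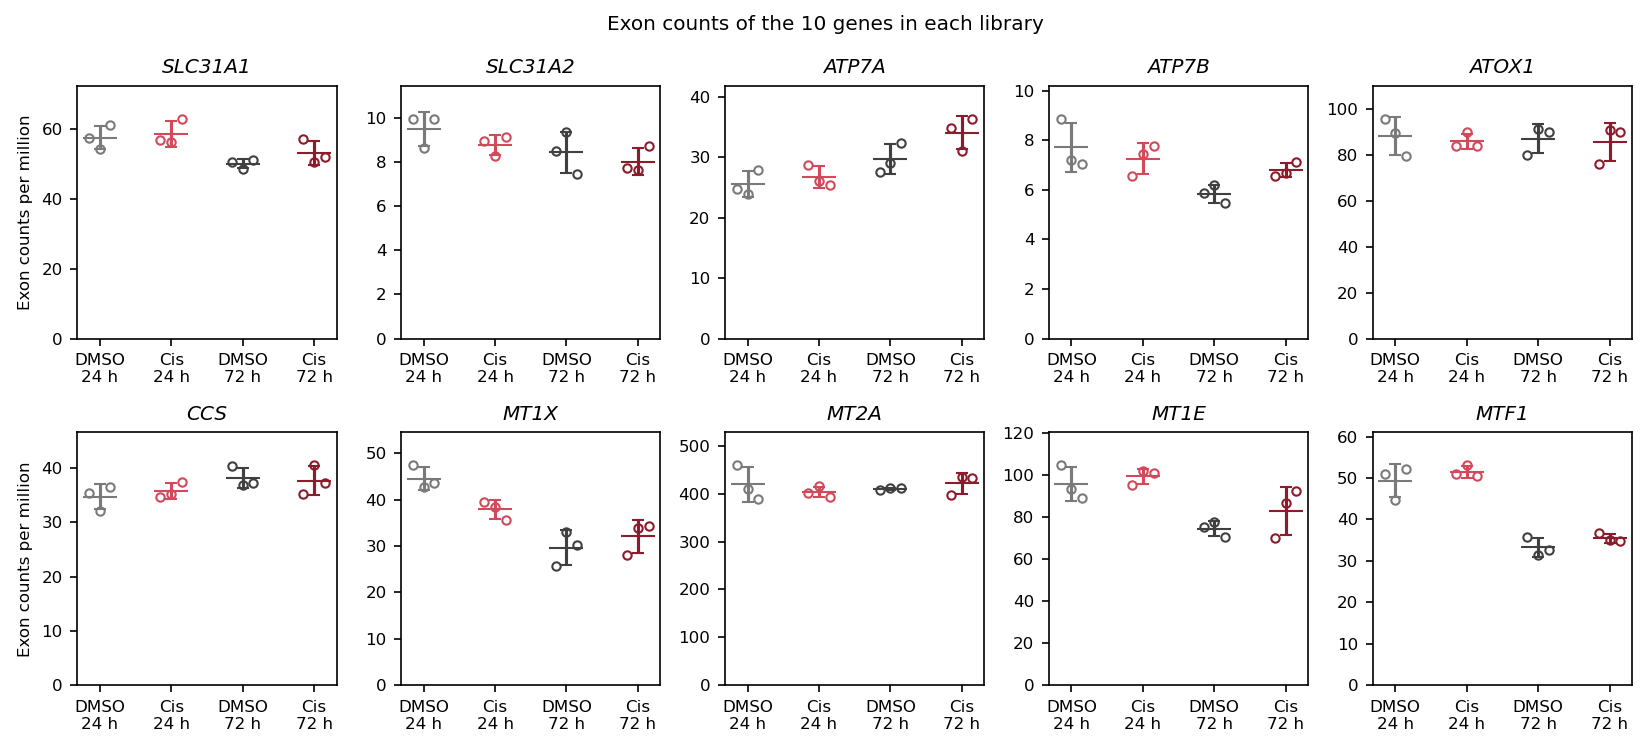
Exon CPM of the 10 genes in each library (points), with the mean and SD of the 3 libraries of a group (lines), each axis starting at 0. MTF1 has 31.3 to 36.6 at 72 h against 44.7 to 53.0 at 24 h, while MT2A stays between 389.7 and 459.7.

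Counts over the intron annotation ranged widely, from 1 to 19 per library for SLC31A2 and 10 to 49 for MTF1 to 42 to 287 for MT2A, 121 to 492 for ATOX1 and 119 to 529 for CCS. SLC31A2 did not pass the filter on low counts. For cisplatin against DMSO, edgeR called 0 of the 9 others at 24 h, beside 0.0208% of all genes, and 0 of 9 at 72 h, beside 0.0416%, with 0 of 9 at an unadjusted p under 0.05 at either time. DESeq2 also called 0 at either time. At 72 h it gave an adjusted p to only 948 genes, so its result says little about these 9. The intron CPM did not overlap between drug and solvent for 1 of 9 genes at 24 h, MT2A, beside 8.94% of all genes, and for 1 of 9 at 72 h, MTF1, beside 13.4%. Between 72 and 24 h in DMSO, 1 of 9 was called, beside 33.4% of all genes, and in cisplatin 0 of 9, beside 31.8%, with 2 of 9 and 3998 of all 9618 genes at an unadjusted p under 0.05 and 0 of 9 called by DESeq2.

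The gene called in DMSO was MT2A. In the GENCODE annotation every base of MT2A and MT1X lies in an exon of some transcript, so what was counted as intron in these genes can also be read as exon of a longer transcript. MT2A had 36.5, 36.2 and 29.8 intron CPM, scaled to the intron counts of the library, in DMSO at 24 h and 44.1, 66.2 and 53.9 at 72 h. In cisplatin it had 39.5, 48.1 and 41.3 at 24 h and 52.7, 61.8 and 58.7 at 72 h. The levels at 72 h were higher without overlap in both treatments, a separation seen in either direction in 5 of 9 genes in DMSO, beside 43.1% of all genes, and in 1 of 9 in cisplatin, beside 42.2%. MT2A introns rose by 0.67 ± 0.18 (SE, log2) in DMSO, with an adjusted p of 0.00266 by edgeR, and had a log2 change of 0.41 ± 0.17 in cisplatin, with an adjusted p of 0.0526 by edgeR. The cisplatin change was called without cisplatin replicate 2 at 24 h, at 0.52, or replicate 1 at 72 h, at 0.48.

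The ratio of exon to intron counts of a gene was used in the study as a readout of splicing. For MT2A it was 174, 166 and 172 in DMSO at 24 h and 133, 107 and 135 in cisplatin. At 72 h it was 137, 90.7 and 110 in DMSO and 106, 97.5 and 98.6 in cisplatin. Cisplatin at 24 h was lower than DMSO in all 3 libraries, a separation seen in 1 of the 10 genes and in 9.55% of all genes tested. At 72 h the ratios did not overlap for 2 of 10 genes, beside 14.4% of all genes. These were ATP7B, at 11.001 ± 1.17 in cisplatin and 7.88 ± 0.736 in DMSO (SD, n = 3), and MTF1, at 50.2 ± 4.91 and 68.8 ± 12.1.

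The tests of this ratio differed in their calls. The edgeR test, which includes the spread between replicates, called 0 of 10 genes for cisplatin at 24 h, beside 0.0% of all genes, and 0 of 10 at 72 h, beside 0.0213% and with 0 of 10 at an unadjusted p under 0.05. MT2A at 24 h had a log2 change of -0.49 ± 0.17 (SE) and an unadjusted p of 0.00871, the only one of the 10 under 0.05 beside 594 of all 9380 genes, with an adjusted p of 0.761 by edgeR. The logistic regression used in the study, which takes no account of that spread, called MT2A alone at 24 h, at -0.51 and an adjusted p of 0.00693, beside 11.5% of all genes (10.7% lower), and 0 of 10 at 72 h, beside 11.4%, where ATOX1 had an unadjusted p under 0.05. With a dispersion estimated for each gene, the quasi-binomial form of that model gave MT2A an adjusted p of 0.866 at 24 h, where it called 0 of 9678 genes. The logistic call was also lost without cisplatin replicate 2 at 24 h, at -0.34.

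For time in DMSO, edgeR called the ratios of 2 of 10 genes, MT1X and MT2A, both lower, beside 11.5% of all genes called and 3.37% called lower. MT1X had ratios of 30.1, 42.2 and 35.1 at 24 h and 17.5, 18.6 and 19.1 at 72 h. The ratio of MT1X fell by 0.93 ± 0.24 (SE, log2) and that of MT2A by 0.64 ± 0.16, with adjusted p of 0.0116 and 0.0115 by edgeR. The median log2 change over all genes was 0.10, in the other direction. The ratios at 24 and 72 h did not overlap for ATP7B, MT1X and MT2A in DMSO, 3 of 10 beside 28.4% of all genes, and for MT1X, MT2A and MTF1 in cisplatin, 3 of 10 beside 29.8%. The MT1X call was lost without DMSO replicate 2 at 24 h, at -0.79, and the MT2A call without DMSO replicate 2 at 72 h, at -0.50.

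In cisplatin, edgeR called 0 of 10 ratios for time, beside 11.9% of all genes, with 2 of 10 and 2549 of all 9380 genes at an unadjusted p under 0.05. MT1X had ratios of 22.6, 25.7 and 50.8 at 24 h and 16.02, 20.3 and 20.02 at 72 h, a log2 change of -0.58 ± 0.23 (SE) and an adjusted p of 0.0910 by edgeR. Without cisplatin replicate 3 at 24 h, its highest library, the change was -0.38, and over the 6 libraries left out in turn it ranged from -0.75 to -0.38. The logistic regression called 4 of 10 genes in DMSO, beside 33.7% of all genes (11.1% lower), and 4 of 10 in cisplatin, beside 40.6% (11.6% lower). They were ATOX1, MT1X, MT2A and MT1E in DMSO and SLC31A2, ATOX1, MT1X and MT2A in cisplatin, all lower at 72 h. None of these 8 calls passed with the quasi-binomial form, which called only 64 of 9739 genes in DMSO and 97 of 9818 in cisplatin. Those of MT1X and MT2A in DMSO passed with each library left out, and each of the other 6 was lost without at least 1 library. SLC31A2 went from -1.29 to -0.63 (log2) without cisplatin replicate 2 at 24 h, where it had 1 intron count, and MT1E in DMSO from -0.49 to -0.16 without DMSO replicate 1 at 24 h.

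**Figure D4:**
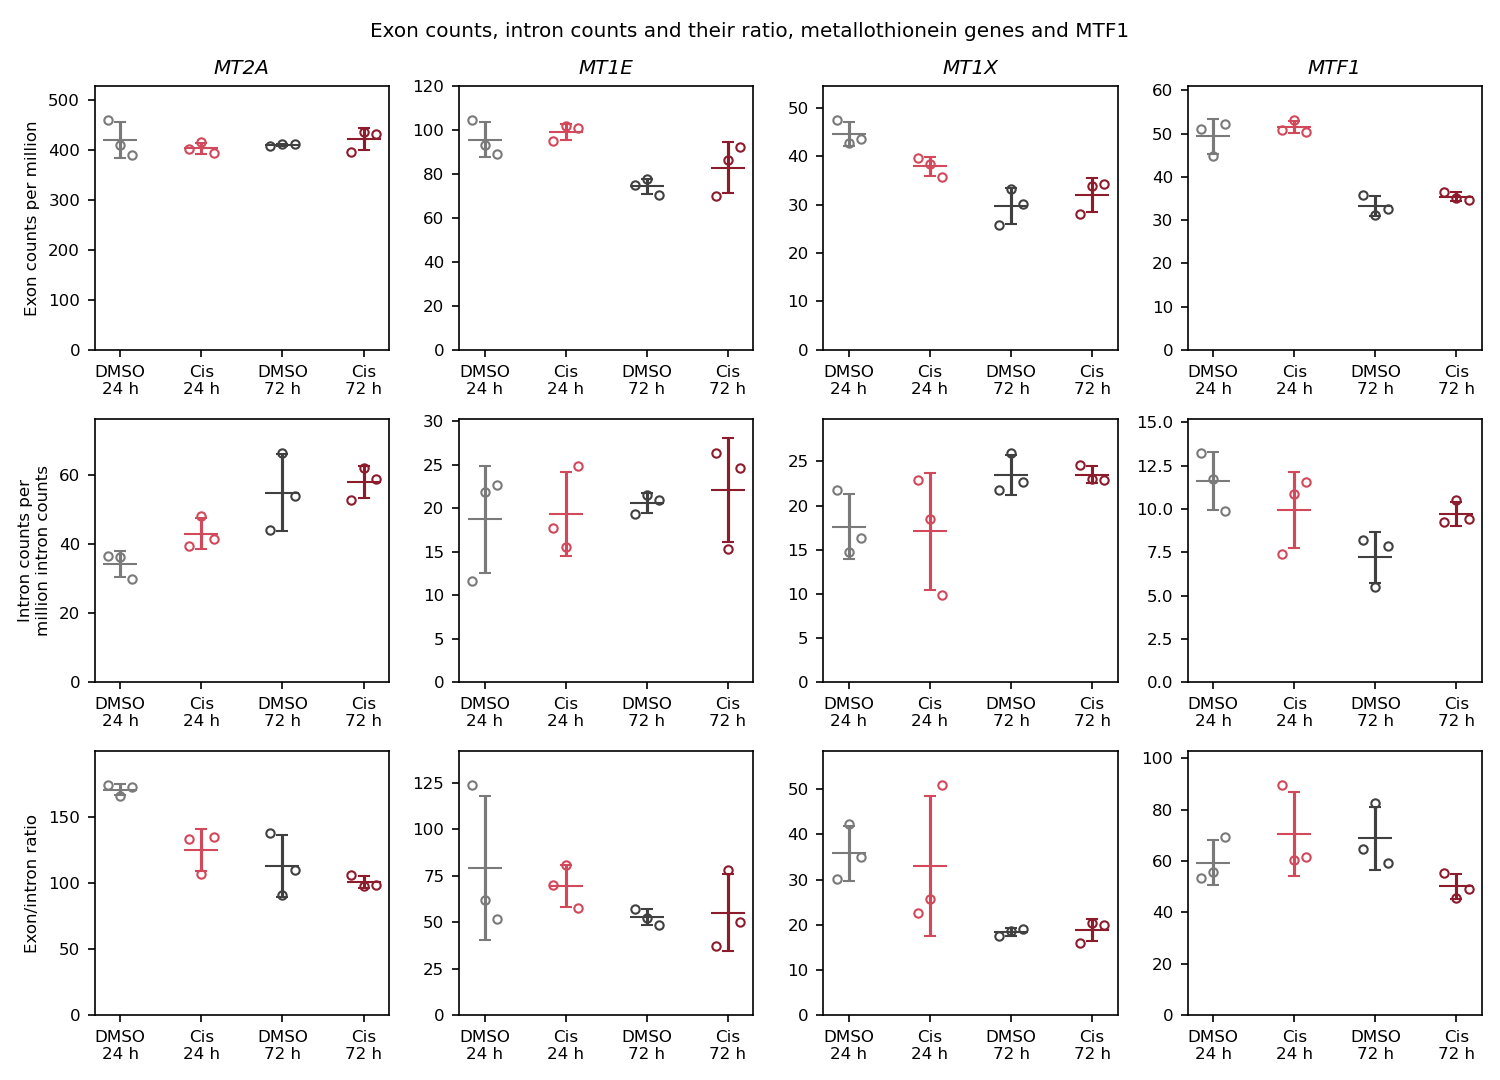
Exon CPM (top), intron CPM, scaled to intron counts (middle) and exon/intron ratio (bottom) of MT2A, MT1E, MT1X and MTF1 in each library (points), with mean and SD of 3 libraries (lines). The ratio of MT1X lies between 17.5 and 19.1 in DMSO at 72 h against 30.1 to 42.2 at 24 h.

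Other genes of the metallothionein family had few or no counts. Of 9 listed, 7 were in the table, and MT1B, MT1F, MT1H, MT1M, MT3 and MT4 had 0 exon counts in all 12 libraries. A count of 0 allows up to 3 counts, or 0.0469 to 0.173 unscaled CPM depending on the library, which covers counting error only. MT1G had 19 exon counts over all libraries, with 0 to 7 in any of them. None of these genes could be tested. How reads that match several family members were counted is not given in the sources used here, so a 0 can also reflect the counting.

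Genes that share copper, zinc or platinum with these proteins were counted from lists in the same edgeR fit. For cisplatin against DMSO, 0 genes were called at 24 or 72 h in 5 lists, namely mitochondrial copper delivery (8 genes tested), other copper handling (14), copper-dependent enzymes (6), zinc transporters (17) and other platinum carriers (9). DESeq2 was not used for these lists. At an unadjusted p under 0.05, each list had 0 genes at 24 h, beside 260 of all 10444 genes, and at 72 h they had 4, 4, 0, 1 and 2 in that order, beside 1311. All 8 mitochondrial genes had log2 changes under 0 at 72 h, with a median of -0.14, beside 49.8% of all genes and a median of 0.00052 over them, and none was called. LRRC8A, a subunit of the volume-regulated anion channel, had the lowest adjusted p at 72 h, 0.196 by edgeR, with a log2 change of 0.28 ± 0.08 (SE).

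For time, the counts of the lists stand beside 32.6% of all genes called higher and 32.5% lower in DMSO (65.1% in all) and 32.0% and 31.5% in cisplatin (63.5% in all). The mitochondrial list (8 genes tested) had 1 gene higher and 4 lower in DMSO and 1 higher and 7 lower in cisplatin, with medians of -0.18 and -0.26 (log2) beside 0.01 and 0.02 over all genes. COX19 rose by 0.77 ± 0.07 (SE, log2) in DMSO and by 0.66 ± 0.07 in cisplatin, and COX11, which brings copper to cytochrome oxidase, fell by 0.46 ± 0.06 and 0.57 ± 0.06. CMC2, SLC25A3 and SCO1 fell by 0.19, 0.18 and 0.18 in DMSO, and CHCHD7, CMC2 and COA6 by 0.38, 0.33 and 0.29 in cisplatin. In DMSO 5 of the 8 mitochondrial genes were called, near the background, and in cisplatin all 8 were, above it.

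Other copper handling genes (14 tested) were 3 higher and 4 lower in DMSO and 4 higher and 8 lower in cisplatin, with medians of -0.06 and -0.18, so that 7 of 14 were called in DMSO, below the background, and 12 of 14 in cisplatin, above it. CUTA rose by 0.62 and 0.47, and APP, the copper-binding amyloid precursor protein, by 0.40 and 0.44, while CUTC fell by 0.31 and 0.52. STEAP3, a metalloreductase, fell by 0.56 in DMSO and DCTN4 rose by 0.22, and in cisplatin STEAP2 rose by 0.36 and MEMO1 fell by 0.35. Of the 6 copper-dependent enzymes tested, 0 were higher and 1 lower in DMSO and 0 higher and 2 lower in cisplatin, both shares below the background. SOD1, which receives its copper from CCS, fell by 0.55 ± 0.05 (SE, log2) in DMSO and by 0.66 ± 0.05 in cisplatin, with adjusted p of 7.40e-10 and 3.63e-11 by edgeR.

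Zinc transporters (17 tested) were 1 higher and 7 lower in DMSO and 3 higher and 6 lower in cisplatin, with medians of -0.11 and -0.04, and 8 and 9 of 17 called lie below the background. SLC30A1, the zinc exporter whose gene is a known MTF1 target, fell by 0.66 ± 0.08 (SE, log2) in DMSO and by 0.54 ± 0.08 in cisplatin, and SLC39A8, a zinc importer, by 0.75 ± 0.12 and 0.76 ± 0.11. SLC39A13 rose by 0.48 and 0.43. SLC39A9 and SLC39A6 fell by 0.49 and 0.42 in DMSO, and in cisplatin SLC30A4 rose by 0.33 and SLC39A3 fell by 0.30.

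Platinum carriers outside the copper family (9 tested) were 1 higher and 4 lower in DMSO and 1 higher and 3 lower in cisplatin, with medians of -0.17 and 0.03, and 5 and 4 of 9 called lie below the background. LRRC8A fell by 0.91 ± 0.08 (SE, log2) in DMSO and by 0.61 ± 0.08 in cisplatin, and TMEM205 rose by 0.71 ± 0.07 and 0.55 ± 0.07. The efflux pump ABCC4 fell by 0.50 and 0.40, and ABCC1 by 0.20 in DMSO.

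The genes with profiles most like MTF1 and MT1X, the pair with the widest ranges of group means, were ranked by the root mean square difference of centred log2 exon CPM over the 12 libraries, among 9555 genes. For MTF1 they were ARF3 at 0.0575, SART3 at 0.0598 and EIF4G1 at 0.0598, where the median gene had 0.308. For MT1X they were ALG9 at 0.102, TMEM158 at 0.103 and BASP1 at 0.103, where the median gene had 0.285. These distances describe the same 12 libraries, in which far more genes were called for time than for cisplatin, and carry no test.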

How the data were processed

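Read trimming by the authors used Trim Galore 0.6.0, alignment to GRCh38 used HISAT2 2.1.0, and HTSeq tallied fragments over an exon annotation (strict mode) and a separate intron annotation (union mode). What was deposited is a table of raw counts, an exon and an intron value for every gene in each library. The strand option is not given in the sources used here, so overlapping genes are uncertain. Symbols, positions and lengths came from GENCODE on GRCh38, for 17485 of 17508 genes. Floors for counts of 0 cover counting error only, since reads carried no molecular identifiers.

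Exon and intron counts were each tested with edgeR 4.0.16 in R 4.3.3 (glmQLFit, glmQLFTest) in a joint fit of the 12 libraries, with filterByExpr, TMM normalization and Benjamini-Hochberg adjustment over all genes tested (threshold 0.05). The exon/intron ratio was tested with edgeR, exon and intron counts sharing the library total and each library having a term, keeping genes whose exon and intron counts both reached 10 in 3 or more libraries. The logistic regression of the study was run on the 6 libraries of each comparison, keeping genes whose exon and intron counts were both 1 or more in all of them. CPM used the TMM library sizes. Alternatives covered normalization, the filter, the test, the libraries in the fit, the replicate number as a block, each library left out and the transcript length. Tests were tested on simulated data. Python 3.11.15, pandas 2.3.3, numpy 2.4.6 and matplotlib 3.10.9 served for the other steps, and DESeq2 1.42.0 was an alternative.

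The genes and lists were chosen with earlier results of these data known. Beside the 10 genes, a rule named called genes of 5 other lists, at most 5 a list and comparison by size of change with a mean of at least 50 exon counts, and the 3 nearest profiles for the 2 genes of widest range, with 0.5 added to CPM before logs. Other metallothioneins needed a mean of at least 10 exon counts to be named by the rule, and those given were chosen after their values were seen, as were ATOX1-AS1 and other overlapping genes. The replicate numbers come from the sample titles, and neither these nor the study says what they share.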

Additional observations from a re-analysis of the deposited data

How the results depend on the processing

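No alternative made a cisplatin effect on exon or intron counts pass the test for any of the 10 genes, in the fits run and with each library left out. Over settings that keep all libraries, 793 of 822 gene changes kept their direction and side of the threshold, 10 no longer passed, 4 came to pass and 15 turned direction. They cover exon counts, intron counts and ratios of each of the 10 genes tested in the comparison, without the changes to which DESeq2 gave no adjusted p. For cisplatin at 72 h DESeq2 gave an adjusted p to 4481 genes for exon counts and 948 for intron counts. Its fits may therefore leave out some of the 10. The 15 that turned were uncalled. With total counts as library size they were ATOX1 exon counts with time in cisplatin, at 0.019 (log2), and the intron interaction of ATP7B and ATOX1, at 0.020 and 0.040. With a replicate block they were MT1X introns with cisplatin at 24 and 72 h, at -0.0039 and -0.019, the intron interaction of ATOX1 and MT1X, at 0.0039 and -0.015, the MT1E ratio for cisplatin at 72 h, at -0.016 by edgeR and -0.014 by logistic regression, and the ratio interaction of ATOX1, at -0.00069. MT1X introns at 24 h turned to -0.00028 with DESeq2 and -0.0057 with only the 6 libraries compared, and their interaction to -0.0036 with DESeq2 size factors and -0.010 with exon library sizes. The intron interaction of ATOX1 was 0.0066 with no filter. Causes were not tested.

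With the quasi-binomial model, which estimates a dispersion per gene, the logistic calls of 1, 4 and 4 genes (cisplatin at 24 h, time in DMSO, time in cisplatin) became 0, 0 and 0. Intron calls for time in DMSO went from 1 to 2 with no filter on low counts and with only the 6 libraries compared, CCS being added at adjusted p of 0.0499 and 0.0350, and for time in cisplatin from 0 to 1 with the replicate block and with only the 6 libraries compared, where MT2A had an adjusted p of 0.0474 and 0.0447 by edgeR. Libraries that share a number had correlations of deviations from -0.20 to 0.13, which does not show pairing. The block also ended the MT1E ratio call for time in DMSO by logistic regression, at an adjusted p of 0.102, and changed no other call.

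With the longest transcript as length, levels in exon CPM per kb were 4.96 for SLC31A2, 3.39 for ATP7A, 0.982 for ATP7B, 19.97 for ATOX1, 30.2 for CCS and 118 for MT1E. With the canonical transcript they were 5.03, 3.42, 1.05, 184, 34.3 and 118 in that order, with 89.1 for MT1X and 1033 for MT2A.

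With each library left out in turn, several counts of calls changed. Intron calls for time ranged from 1 to 2 in DMSO (2 without DMSO replicate 2 or 3 at 24 h or replicate 1 or 3 at 72 h, where ATP7A, CCS, SLC31A1 and CCS were added in that order) and from 0 to 1 in cisplatin (1 without cisplatin replicate 2 or 3 at 24 h or replicate 1 at 72 h, which was ATOX1 without replicate 3 and MT2A otherwise). Ratio calls by edgeR for time in DMSO ranged from 1 to 2 (1 without DMSO replicate 2 at either time). Logistic calls ranged from 0 to 1 for cisplatin at 24 h (0 without cisplatin replicate 2), from 2 to 5 for time in DMSO (2 without DMSO replicate 1 at 24 h) and from 2 to 3 for time in cisplatin, with 2 without any 24 h cisplatin library or without cisplatin replicate 1 at 72 h.

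Some uncalled log2 changes turned sign when a library was left out, and none of these was called in any such fit. For exon counts with cisplatin at 24 h, the ranges were -0.024 to 0.069 for SLC31A1, -0.15 to 0.019 for ATP7B, -0.11 to 0.020 for ATOX1, -0.011 to 0.079 for CCS, -0.11 to 0.014 for MT2A and -0.0046 to 0.11 for MTF1. At 72 h they were -0.16 to 0.0076 for SLC31A2, -0.085 to 0.049 for ATOX1 and -0.076 to 0.026 for CCS. For time they were -0.089 to 0.040 for ATOX1 and -0.083 to 0.037 for MT2A in DMSO and -0.054 to 0.066 for ATOX1 in cisplatin, and for the interaction -0.045 to 0.12 for SLC31A2, -0.047 to 0.089 for ATOX1 and -0.013 to 0.098 for MTF1. Intron counts with cisplatin ranged from -0.11 to 0.36 for ATP7A, -0.094 to 0.15 for ATOX1, -0.094 to 0.22 for CCS, -0.21 to 0.21 for MT1X and -0.25 to 0.17 for MT1E at 24 h and from -0.21 to 0.74 for SLC31A1, -0.043 to 0.076 for MT1X, -0.047 to 0.22 for MT2A and -0.099 to 0.31 for MT1E at 72 h. With time they ranged from -0.11 to 0.31 for MT1E in DMSO and from -0.18 to 0.084 for MTF1 in cisplatin, and the interaction from -0.21 to 0.20 for ATP7B, -0.11 to 0.14 for ATOX1, -0.20 to 0.22 for MT1X and -0.11 to 0.32 for MT1E. The edgeR ratio with cisplatin ranged from -0.38 to 0.12 for ATP7A, -0.14 to 0.36 for ATP7B, -0.24 to 0.083 for CCS and -0.25 to 0.29 for MT1E at 24 h and from -0.73 to 0.17 for SLC31A1, -0.041 to 0.038 for CCS, -0.062 to 0.13 for MT1X, -0.26 to 0.0032 for MT2A and -0.29 to 0.30 for MT1E at 72 h. With time it ranged from -0.42 to 0.077 for ATP7A in DMSO and from -0.23 to 0.093 for CCS in cisplatin, and the interaction from -0.13 to 0.13 for ATOX1, -0.084 to 0.24 for CCS and -0.27 to 0.34 for MT1E. By logistic regression, the ratio with cisplatin ranged from -0.39 to 0.10 for ATP7A, -0.14 to 0.35 for ATP7B, -0.27 to 0.083 for CCS and -0.23 to 0.30 for MT1E at 24 h and from -0.74 to 0.16 for SLC31A1, -0.043 to 0.039 for CCS, -0.079 to 0.12 for MT1X and -0.29 to 0.35 for MT1E at 72 h, and with time from -0.39 to 0.10 for ATP7A in DMSO and from -0.24 to 0.12 for CCS in cisplatin.

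Over all genes, exon calls for cisplatin at 72 h were 3 of 10444 tested, against 96 of 4481 with DESeq2 and 154 of 13148 with no filter. With no filter they were 7 of 13148 against 0 of 10444 at 24 h and 20 of 13148 against 0 of 10444 for the interaction. DESeq2 gave 2 of 1423 for the interaction. Intron calls at 72 h were 4 of 9618, against 19 of 13668 with no filter, 26 of 9593 with only the 6 libraries and 2 of 948 with DESeq2. Quasi-binomial calls over all genes were 0, 0, 64 and 97, against 1110, 1144, 3278 and 3984. Low intron counts limit what the ratio tests can show for SLC31A1, SLC31A2, ATP7B and MTF1.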
